A study of Homo sapiens with 6 samples.

Results

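NEAT1 is a long noncoding RNA of the cell nucleus, transcribed from human chromosome 11 and known as the architectural RNA of paraspeckles, nuclear bodies that form around it together with RNA-binding proteins such as NONO and SFPQ. The gene makes a short, polyadenylated isoform and a long isoform that share their 5′ end, and only the long isoform builds paraspeckles. 2′-O-methylation (Nm) adds a methyl group to the ribose of a nucleotide and is best known from ribosomal and small nuclear RNAs. The question addressed here is how the Nm-mut-seq signal, a base read as T under a biased supply of nucleotides, lies along NEAT1 in chromatin-associated RNA (caRNA).

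NEAT1 was taken as the plus strand of chr11:65422774-65445540 in hg38, a stretch of 22767 nt (ENSG00000245532.11 in GENCODE release 44), and it is 1 of 4887 genes with a listed position on their own strand. All positions in this interval were used, and no position of the minus strand was listed in it. The annotated short isoform nearest to 3.7 kb has 3684 nt and the long isoform has 22743 nt. The first 3.7 kb are covered by both isoforms, so that reads there cannot be assigned to either of them, and all bases after it are called the rest of NEAT1 below.

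HepG2 cells, an established line from a human liver cancer, were the source of the caRNA, with 3 biological replicates, and the labels give no treatment of the cells themselves. After ligation, each replicate was split over a pair of reverse transcriptions, which makes 6 libraries: imbalanced dNTP held 1 mM dATP and the other nucleotides at 2 µM, and balanced dNTP held all of them at 1 mM. With dATP in excess, reverse transcriptase tends to insert A opposite a methylated guanine, adenine or cytosine, and the base is then read as T. Methylated uracil cannot be seen in this way, because it is read as T in any case, and balanced dNTP served as the input of the same-numbered replicate. The mutation ratio is the number of reads with T over the depth, which counts all reads at the position. RNA under 200 nt and ribosomal RNA had been depleted, and reads were 100 nt long and single-end.

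In the whole series, 176343 positions were listed under imbalanced dNTP and 246881 under balanced dNTP, with median depths between 10 and 23. Positions were listed under imbalanced dNTP only with at least 3 reads with T in some library, so ratios of listed positions exceed those of all positions where the depth is low. Listing under balanced dNTP also seemed to depend on T. A guanine 5011 nt from the start of NEAT1 was not listed there. In imbalanced dNTP replicate 1, 43.0% of its 328 reads had a base other than that of hg38 and T. Shares of listed positions under balanced dNTP may therefore exceed those of all positions. Of 17 hepatocyte genes chosen as markers, 13 had a position listed under imbalanced dNTP, ALB and AFP among them, and none of 8 markers of other cell types had any. The original design also had spike-in RNA without Nm, reverse transcribed with imbalanced dNTP as the background, which is not used here. Whether the reads with T at a given base come from 2′-O-methylation was therefore not tested, and all values below describe the reads.

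Short stretches of hg38 around the positions with the highest mutation ratios are shown first, since the ratio of a base varied with its neighbours in the results that follow. They are the 3 positions with the highest mean ratio for each base among those that met the criteria for a site and had a depth of at least 100 in all imbalanced dNTP libraries, and the guanine with the largest fitted change. Each sequence is RNA, written 5′ to 3′ on the plus strand with 10 bases on each side, and the capital is the position itself. Names give the base and its distance from the annotated start.
Guanine 2887: uuccucauuuGucacaggugu
Guanine 15443: ccuuuuucauGucacccaaag
Guanine 16263: gcgcauucuuGccaacacuag
Guanine 18807: auguauuaguGuagaguagca
Adenine 5871: caaaaugaauAcuaacauuac
Adenine 9355: gaauugugcuAugaucaggug
Adenine 16373: gcuaucaagcAccuuugcugg
Cytosine 1049: gagaggccuuCccgcugaggc
Cytosine 21012: cugcuguuuuCccuuggcccu
Cytosine 21814: guggggggcuCccacggaccc
The 4 guanines and 2 of the 3 adenines follow a uracil, and all 3 cytosines stand between a uracil and a cytosine.

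Nearly all of NEAT1 was read with some T under imbalanced dNTP. Of its 15548 guanine, adenine and cytosine positions, 13880 (89.3%) were listed under imbalanced dNTP, 10781 (69.3%) under balanced dNTP and 10132 in both. Listing reached 86.0% of the guanines, 90.5% of the adenines and 91.5% of the cytosines. NEAT1 held 7.87% of all positions listed under imbalanced dNTP in the series, and between 22.6% and 28.5% of the summed depth of a library. Its median depth was 320, 284 and 438 in imbalanced dNTP replicates 1, 2 and 3, and 707, 469 and 666 in balanced dNTP replicates 1, 2 and 3. Transcription past the annotated end was hardly covered: in the next 1000 nt, 2 positions were listed under imbalanced dNTP and 14 under balanced dNTP, with a median depth of 12 in balanced dNTP replicate 1.

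At the 10132 positions listed in both tables, T made up 3.504%, 3.71% and 3.43% of the reads in imbalanced dNTP replicates 1, 2 and 3. The same positions had 0.110%, 0.126% and 0.117% in the balanced dNTP libraries. The groups did not overlap, and the mean ratio of 3.55% ± 0.144 (SD, n = 3) was 30.2 times that of the input, 0.118% ± 0.00779 (SD, n = 3). The paired difference was 3.43 ± 0.138 percentage points and had the same sign in 3 of 3 pairs (two-sided exact permutation test over the pairs, p = 0.25, which is also the lowest value possible with 3 pairs). The ratio was higher under imbalanced dNTP in all 3 pairs at 9626 of the 10132 positions (95.01%). Listing under imbalanced dNTP required reads with T, which favours this direction. The 3748 positions listed under imbalanced dNTP only (27.0%) are not part of this comparison.

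Guanine gave the highest share among the 3 bases. Over all listed positions, T was read at guanines in 4.12%, 4.397% and 4.04% of reads in imbalanced dNTP replicates 1, 2 and 3. At cytosines it was 3.17%, 3.32% and 3.10%, and at adenines 2.90%, 3.02% and 2.81%. The order guanine, cytosine, adenine held in each of the 3 libraries, with mean differences of 0.988 ± 0.0740 between guanine and cytosine and 0.289 ± 0.0178 percentage points between cytosine and adenine (SD, n = 3; exact paired permutation test, p = 0.25 for both). Under balanced dNTP the shares were 0.138% ± 0.00918 at cytosines, 0.117% ± 0.00745 at guanines and 0.102% ± 0.00763 at adenines (SD, n = 3). Without the 3 positions described further below with frequent T in all libraries, cytosines and guanines had nearly equal values, 0.112% ± 0.00936 and 0.112% ± 0.00787.

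The fit was made over positions of the series listed under both dNTP conditions, and it called most of those in NEAT1. With edgeR's quasi-likelihood test on reads with and without T, 9388 of the 10132 tested NEAT1 positions (92.7%) were called at an adjusted p under 0.05. Their mutated share was higher under imbalanced dNTP. Of all positions tested, 73.9% were called higher, and of those outside NEAT1, 65.3%. Listing under imbalanced dNTP required reads with T, which favours calls in this direction. None of the NEAT1 positions was called lower by edgeR, by DESeq2 or by Fisher's exact test in each replicate. None had an unadjusted edgeR p under 0.05 for a lower share. The log2 change of the mutated share had a median of 4.49 in NEAT1, 3.94 over all positions tested and 3.64 over those outside NEAT1. In NEAT1 it ranged from -0.33 to 9.15. Calls reached 90.3% of the guanines, 93.6% of the adenines and 94.2% of the cytosines tested. A negative change was fitted at 3 positions, and leaving out 1 replicate lowered the calls to between 7517 and 8085. Depth differs between NEAT1 and most other RNAs in the table, and its part in the higher share of calls was not tested.

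The criteria for a site are a depth of at least 10, at least 3 reads with T and a ratio of more than 3 times the input in all 3 replicates. The spike-in criterion of the original design was not applied, so the number of sites here is not comparable with one that includes it. The criteria were met at 10215 of the 13878 listed positions with a sufficient depth (73.6%), against 26.7% of such positions in the whole series, NEAT1 included. Sites made up 3356 of the listed guanines (72.5%), 3660 of the adenines (73.3%) and 3199 of the cytosines (75.1%). At 2463 of them the input position was not listed, and its ratio counted as 0. Of the 3663 positions of sufficient depth that failed, 3498 (95.5%) had under 3 reads with T in some replicate and 165 missed only the comparison with the input. Sites lay next to each other: the median distance between neighbouring sites was 2 nt and the largest was 259 nt. A run of 62 sites without a failing guanine, adenine or cytosine in between spanned 131 nt from 9067 nt after the start, and 46.5% of all sites lay in runs of 10 or more.

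Few of these sites had a high ratio. Over the 13880 listed positions, the ratio averaged over the imbalanced dNTP replicates had a median of 2.70%, a 5th percentile of 0.72% and a 95th percentile of 8.85%. It exceeded 10% at 452 positions (3.26%) and stayed below 1% at 1544 (11.1%). With a ratio of at least 0.05 asked for in each replicate, 1852 sites were left, and with at least 0.1, 220 were left.

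Depth went with the share of positions that met the criteria more than with their ratio. Grouped by the lowest depth among the imbalanced dNTP libraries, 7.92% of 101 positions under 50 reads, 55.9% of 2739 positions from 100 to 200 and 92.8% of 1052 positions from 500 reads were sites. The pooled ratio was 4.69% ± 0.256 under 50 reads, 3.87% ± 0.241 from 50 to 100 and between 3.36% and 3.56% in each deeper class (SD, n = 3). The highest values stood in the class where 3 reads with T, the minimum for a site, are the largest share of the reads.

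The bases on both sides of a position went with most of the differences in its ratio. The variance of the log2 mean ratio was taken over 13247 positions with at least 100 reads in each imbalanced dNTP replicate. Positions with T in over 20% of the reads of a balanced dNTP library were left out. Of this variance, the base alone described 1.04%, the base with its 5′ neighbour 37.1% and the base with its 3′ neighbour 24.6%. For the base with both neighbours, 48 contexts in all, the share described was 61.5%. With 2 neighbours on each side it was 69.8%, in 748 classes. For comparison, the ratios of single positions correlated between replicates with Pearson's r from 0.842 to 0.855, across positions that share their libraries and are not independent. These are descriptions of positions within the same 3 libraries and carry no test.

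The order of the 5′ neighbours was uracil, cytosine, adenine, guanine. Averaged over the 12 contexts of each, the ratio was 4.75% ± 0.178 after uracil, 3.76% ± 0.186 after cytosine, 2.19% ± 0.111 after adenine and 1.89% ± 0.0648 after guanine (SD, n = 3). For guanine the 2 lower values did not keep this order, with 1.69% ± 0.0895 after adenine and 1.77% ± 0.0883 after guanine, and for cytosine the highest value stood after cytosine, at 3.57% ± 0.175. On the 3′ side the ratio was 4.46% ± 0.230 before cytosine, 3.96% ± 0.169 before uracil, 2.27% ± 0.0730 before adenine and 1.91% ± 0.0693 before guanine. Before uracil, guanine and adenine had higher values than before cytosine, 5.09% against 4.74% and 3.64% against 3.55%. Pyrimidines stood above purines on both sides for each of the 3 bases. The lowest context was GGG, with 0.690%, 0.771% and 0.751% in replicates 1, 2 and 3. The highest was UGU, with 8.90%, 9.44% and 8.55%. Their positions hardly met: the 90th percentile over 226 GGG positions was 1.31%, and the 10th percentile over 677 UGU positions was 4.48%.

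**Figure D1:**
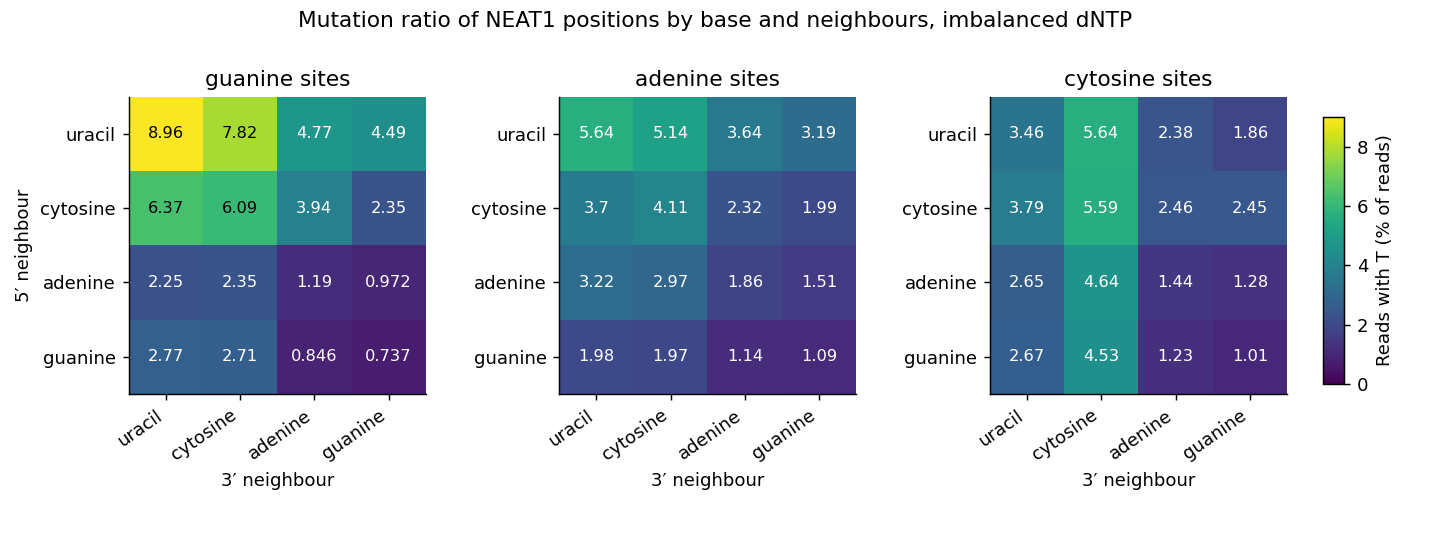
Mean mutation ratio (percent of reads with T, 3 imbalanced dNTP libraries) of NEAT1 positions by the base itself (panels), the base before it (rows) and the base after it (columns). Values run from 0.737 for a guanine between guanines to 8.96 for a guanine between uracils, and the upper left corner of each of the guanine and adenine panels is the highest.

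Low contexts were also listed less often, which bounds how low they can appear. Of the GGG positions of the gene, 226 of 455 (49.7%) were listed, whereas 677 of the 698 UGU positions (97.0%) were. Sites followed the same order, with 28 of the listed GGG positions and 640 of the listed UGU positions meeting the criteria.

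Positions between uracils, the UNU motif, stood out at guanine and adenine and far less at cytosine. UNU positions made up 10.8% of the guanines, adenines and cytosines of the gene. The mean of the shares at the 3 bases was 6.00%, 6.27% and 5.8% at 1623 UNU positions in imbalanced dNTP replicates 1, 2 and 3. At the other 12257 positions it was 2.99%, 3.16% and 2.92%. The groups did not overlap, and the difference was 3.00 ± 0.115 percentage points (SD, n = 3; higher in 3 of 3 libraries, exact paired permutation test, p = 0.25). Without 3 positions described further below, the ratio was 8.96% against 3.29% at guanines, 5.64% against 2.63% at adenines and 3.46% against 3.13% at cytosines. In the balanced dNTP libraries the same comparison gave 0.104% ± 0.00548 at UNU positions and 0.110% ± 0.00856 at the others (SD, n = 3; lower in 3 of 3 libraries, exact paired permutation test, p = 0.25). Sites were 93.1% of the listed UNU positions and 71.0% of the others, and the fit called 98.8% of 1280 tested UNU positions and 91.8% of 8852 others. Of all 3493 tested positions after a uracil, UNU included, it called 98.4%. Contexts with a uracil before and a cytosine after came close at guanine and adenine. UGC had 7.82% beside 8.96% in UGU, and UAC had 5.14% beside 5.64% in UAU. At cytosine, UCC was higher than UCU, with 5.64% against 3.46%.

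Along the transcript the ratio varied little. In bins of 1 kb, the mean of the shares at the 3 bases lay between 3.08% ± 0.128, in the bin from 21 kb, and 3.73% ± 0.162, in the bin from 9 kb (SD, n = 3 imbalanced dNTP libraries). The 3 libraries shared this profile, with Pearson's r between 0.959 and 0.973 over 23 bins of the same RNA. The ratio that the contexts of a bin give, each at its mean over the gene, correlated with the measured pooled ratio at 0.774 over the bins. Neither value is a test, since bins share the libraries and differ in base composition.

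**Figure D2:**
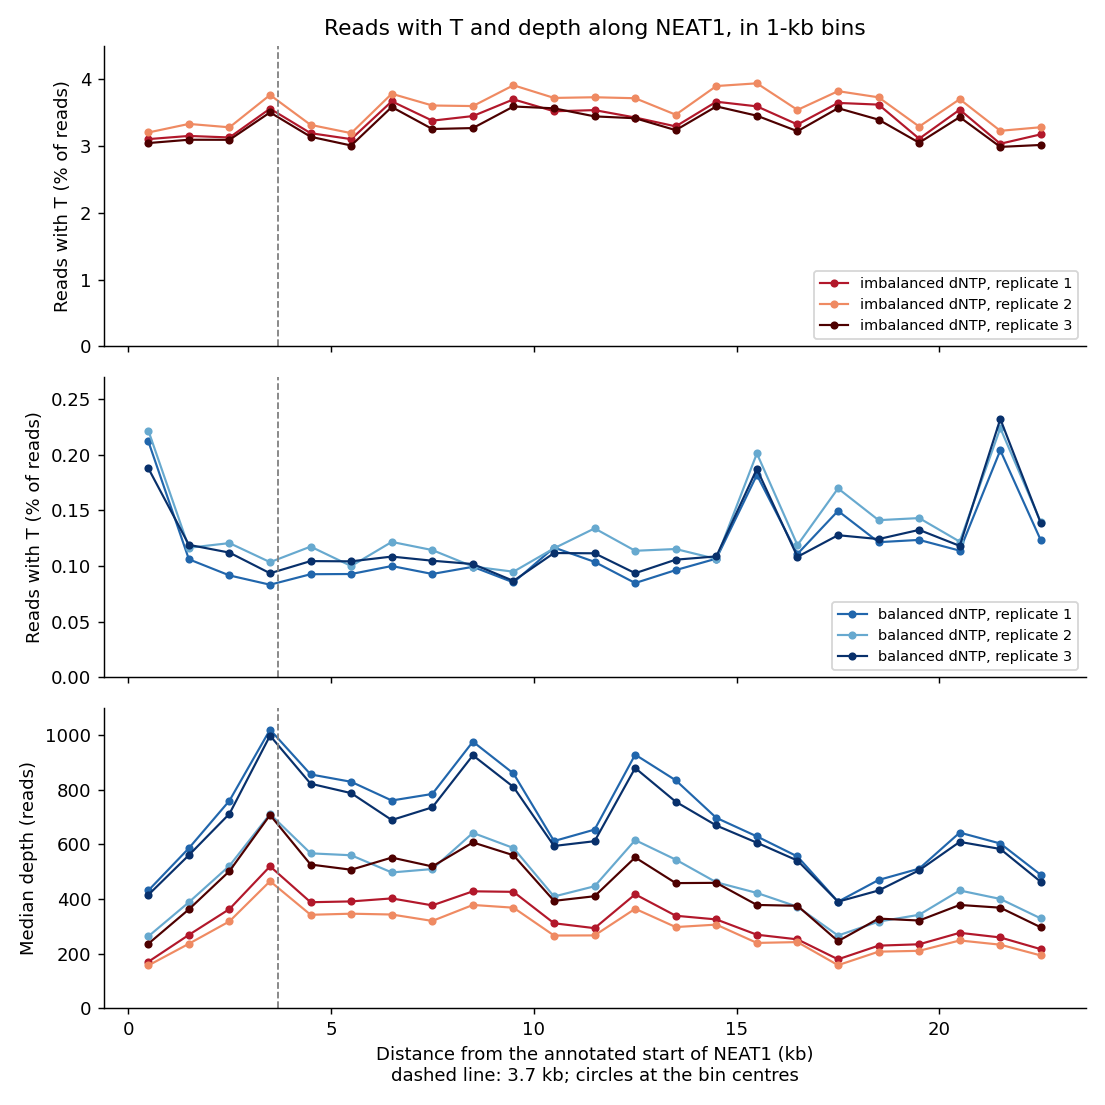
Reads with T in the 3 imbalanced dNTP libraries (top, percent of reads, mean of the shares at 3 bases), in the 3 balanced dNTP libraries (middle) and median depth of listed positions (bottom) in 1-kb bins along NEAT1; the dashed line marks 3.7 kb. The imbalanced dNTP libraries run close to level, and the raised balanced dNTP values in the bins from 0, 15 and 21 kb each contain a position with T in over 39% of reads.

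Depth had a stronger profile than the ratio. In imbalanced dNTP replicate 1 the median depth rose from 170 in the first bin to 519.5 in the bin from 3 kb, where the short isoforms end, and fell to 179 in the bin from 17 kb, the next lowest. Only 60.6% of the positions were listed in that bin, against 98.8% in the bin from 3 kb. Profiles of depth correlated between all 6 libraries at 0.964 or more over the bins.

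The first 3.7 kb were not deeper than the rest. Their median depth was 291, 257 and 402 in imbalanced dNTP replicates 1, 2 and 3, beside 325, 289 and 444 in the rest of NEAT1. In balanced dNTP replicates 1, 2 and 3 it was 631, 415 and 608 beside 719, 479 and 677. The first 3.7 kb were lower in each of the 6 libraries, which come in pairs from 3 replicates. Their ratio to the rest was 0.897 ± 0.00814 under imbalanced and 0.881 ± 0.0161 under balanced dNTP (SD, n = 3 each). Over the 6 libraries together it averaged 0.889, with an SD of 0.0144 between libraries that are not independent. With mean depths this average was 0.981. Less RNA of a region and a poorer yield of reads from it cannot be told apart.

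By base, the first 3.7 kb had a slightly lower mutation ratio than the rest under imbalanced dNTP. At guanines it was 3.99%, 4.30% and 3.95% beside 4.15%, 4.42% and 4.06% in the rest, for imbalanced dNTP replicates 1, 2 and 3. At adenines it was 2.76%, 2.80% and 2.64% beside 2.93%, 3.06% and 2.84%. At cytosines it was 3.05%, 3.17% and 3.03% beside 3.19%, 3.35% and 3.11%. Each base was lower in each library, and the mean of the bases differed by -0.156 ± 0.0276 percentage points (SD, n = 3; lower in 3 of 3 libraries, exact paired permutation test, p = 0.25). The level of 1 region varied between libraries with an SD of 0.114 in the first 3.7 kb and 0.140 in the rest. The difference within a library varied less, with the SD of 0.0276 given above. Under balanced dNTP the mean of the bases was 0.120% ± 0.00989 in the first 3.7 kb and 0.118% ± 0.00764 in the rest (SD, n = 3). It was higher in the first 3.7 kb in 2 of 3 libraries. Without the 3 positions with frequent T described further below, it was 0.111% and 0.108%, higher in 3 of 3 libraries.

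The direction turned when the neighbours were held equal. With the same weight for each of the 48 contexts, the first 3.7 kb had 3.22%, 3.37% and 3.14% and the rest 3.09%, 3.28% and 3.02%, a difference of 0.118 ± 0.0278 percentage points (SD, n = 3; higher in 3 of 3 libraries, exact paired permutation test, p = 0.25). Without the 3 positions with frequent T described further below, this difference was 0.105 ± 0.0265 percentage points (SD, n = 3), higher in 3 of 3 libraries. Of the contexts, 25 were higher in the first 3.7 kb in all 3 libraries and 8 were lower in all 3. The 2 regions differ in composition: 32.2% of the guanines, adenines and cytosines in the first 3.7 kb follow a guanine and 25.4% follow a uracil, against 23.0% and 31.8% in the rest. UNU positions are 6.84% of the first 3.7 kb and 11.6% of the rest. Sites were 1646 of 2349 listed positions (70.1%) in the first 3.7 kb and 8569 of 11531 (74.3%) in the rest, and the fit called 90.02% and 93.2% of the positions tested.

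**Figure D3:**
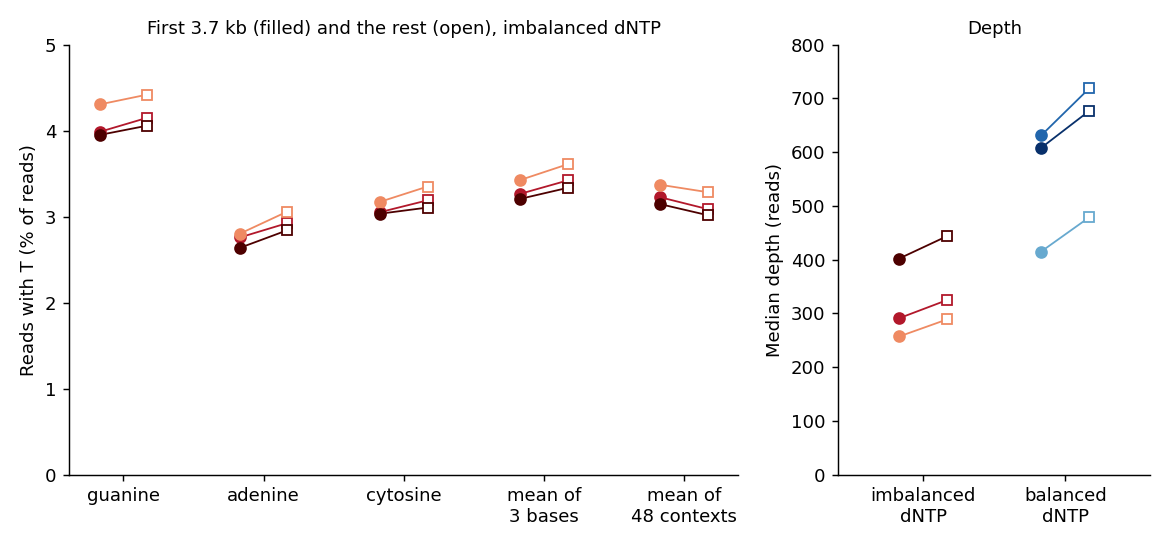
Left, reads with T (percent of reads) in the first 3.7 kb (filled circles) and the rest of NEAT1 (open squares) in the 3 imbalanced dNTP libraries, joined by lines within a library, for each base, as the mean of the 3 bases and as the mean of the 48 contexts. Right, the median depth in all 6 libraries. The lines rise to the rest for each base and for the depth, and fall for the mean of the contexts.

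The positions printed above were picked for their high values, so that a ratio above the mean of the context is given only as a description. Guanine 18807 had T in 23.4%, 21.9% and 23.6% of 218, 183 and 267 reads in imbalanced dNTP replicates 1, 2 and 3, and in 0.490% of 204 reads in balanced dNTP replicate 2, with no T in 309 and 269 reads of replicates 1 and 3. No read with T in 309 allows a ratio of up to 0.971%, and in 269 of up to 1.12%, by counting error alone. Its mean of 22.9% ± 0.9505 (SD, n = 3) was 2.56 times the 8.96% of its context UGU. The log2 change was 7.32 ± 0.66 (SE; edgeR, adjusted p = 8.94e-28).

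Guanine 16263 had 19.6% ± 1.75 and guanine 15443 had 19.3% ± 3.34 (SD, n = 3), beside means of 0.0887% and 0.146% under balanced dNTP. Guanine 2887, the position with the largest fitted change, had 18.9%, 19.5% and 15.9% of 657, 524 and 862 reads. Under balanced dNTP it had 0.0995% in replicate 2 and no T in 1436 and 1351 reads of replicates 1 and 3, which allows up to 0.209% and 0.222%. Its log2 change was 9.15 ± 0.42 (SE; edgeR, adjusted p = 1.35e-102). Of the 4 guanines, this position alone lies within the first 3.7 kb.

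Among the cytosines, position 21814 had 15.9%, 19.7% and 16.0% of 220, 188 and 294 reads under imbalanced dNTP, beside a mean of 0.0548% under balanced dNTP. Its mean of 17.2% ± 2.16 was 3.05 times that of its context UCC, and it had the largest fitted change of the cytosines, 7.73 ± 0.63 (log2, SE; edgeR, adjusted p = 6.73e-33). Cytosine 1049 had 15.8% ± 1.28. Cytosine 21012 had 11.2%, 21.3% and 11.6%, with a mean of 14.7% ± 5.69 (SD, n = 3), and replicate 2 stood apart from the other two.

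Adenine 5871 had 14.3% ± 2.06 and adenine 16373 had 14.0% ± 1.55 (SD, n = 3), which is 3.41 times the mean of the context CAC. The third, adenine 9355, is an adenine in hg38 but not in these reads. G was read there in 99.7%, 99.9% and 99.0% of reads in balanced dNTP replicates 1, 2 and 3 and in 84.4%, 79.9% and 85.8% under imbalanced dNTP. Its ratio of 14.99%, 19.9% and 13.8% is therefore set beside the mean of guanines between uracils, 8.96%, and not beside that of adenines. In all, 11 of 14529 listed NEAT1 positions had a base other than that of hg38 and T in over 20% of the reads of a library.

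**Figure D4:**
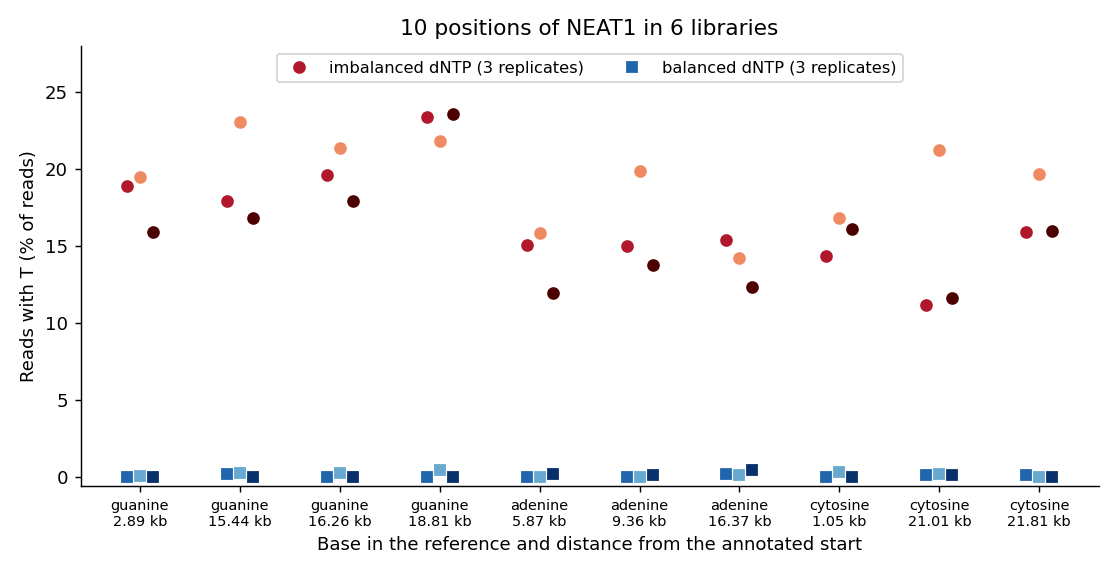
Reads with T (percent of reads) at the 10 positions whose sequences are given, in the 3 imbalanced dNTP libraries (circles) and the 3 balanced dNTP libraries (squares). All imbalanced dNTP values lie above 11 and all balanced dNTP values below 0.5; the adenine at 9.36 kb was read as guanine in these cells.

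At 3 positions T was frequent in all 6 libraries, and these passed neither the criteria nor the fit. The guanine 135 nt from the start had T in 52.0%, 57.7% and 58.9% of reads under imbalanced dNTP and in 62.8%, 62.3% and 61.1% under balanced dNTP. The cytosine at 15773 nt had 40.8%, 39.5% and 42.6% beside 46.1%, 48.04% and 41.8%. The cytosine at 21878 nt had 49.6%, 42.7% and 45% beside 43.2%, 42.3% and 45.05%. Their log2 changes were -0.33, -0.23 and 0.12 (edgeR, adjusted p = 0.294, 0.258 and 0.463). Together they raised the balanced dNTP share of their bins, which was 0.153%, 0.110% and 0.123% without them and 0.207%, 0.190% and 0.220% with them.

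A second base after the position also went with the ratio. This was looked at after some positions had been seen to exceed their context, among them these adenines, both followed by 2 cytosines.
Adenine 13986: uuuuuggggaAccauuaaguu
Adenine 8705: uuauugaggaAccacuguagu
Adenine 8705 had 10.7%, 9.82% and 10.3% in imbalanced dNTP replicates 1, 2 and 3, and adenine 13986 had 10.5%, 15.3% and 8.997%, beside a context mean of 2.97%. Over NEAT1, the 53 AAC positions with a further cytosine had 4.30% ± 0.403 and the other 170 had 2.61% ± 0.200 (SD, n = 3). The ratio was higher with a further cytosine in all 3 libraries in each of the 12 contexts that end in cytosine, from 2.49% against 1.85% in GAC to 9.82% against 7.19% in UGC. In MALAT1 the same held in all 3 libraries for each of these contexts but GAC, where it held in 2 of 3 libraries, although the groups were as small as 1 position. Since the choice followed the values, no test is given.

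MALAT1, a nuclear noncoding RNA encoded next to NEAT1 and found in nuclear speckles, had the most similar context profile. Over the 48 contexts, the mean ratios of the 3 libraries correlated between NEAT1 and MALAT1 with Pearson's r of 0.987, the highest of 25 genes compared. These had at least 500 listed positions and shared with NEAT1 at least 40 contexts with 3 or more positions each, so that some were compared over fewer than 48. APOB, which encodes the protein of low-density lipoproteins, came next with 0.976, and A2M, a plasma protease inhibitor, with 0.959. All of these genes were measured in the same libraries. Depth differed widely, with a median of the lowest depth per position of 519 in MALAT1, 30 in APOB and 29 in A2M, and its part in the order was not tested.

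The level of NEAT1 against MALAT1 depended on the weights. By base, NEAT1 had 3.43% ± 0.136 and MALAT1 3.20% ± 0.118 (SD, n = 3), a paired difference of 0.224 ± 0.0186 percentage points (higher in 3 of 3 libraries, exact paired permutation test, p = 0.25). It was 0.128 when unlisted positions were counted with 0 reads with T. With the 48 contexts weighted equally, NEAT1 had 3.15% ± 0.135 and MALAT1 3.36% ± 0.124, a difference of -0.207 ± 0.0166 (lower in 3 of 3 libraries, exact paired permutation test, p = 0.25). MALAT1 was higher in all 3 libraries in 33 of the contexts and NEAT1 in 8. The largest gap was in UCC, with 5.64% ± 0.367 in NEAT1 and 6.98% ± 0.341 in MALAT1, while CGA was higher in NEAT1, with 3.94% ± 0.252 against 2.98% ± 0.345, or 3.61% ± 0.260 without the guanine at 135 nt (SD, n = 3). Guanines between uracils were 4.49% of the positions in NEAT1 and 2.79% in MALAT1. The fit called 95.3% of 4127 tested MALAT1 positions higher, and 66.0% of the guanines, adenines and cytosines of MALAT1 were listed.

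**Figure D5:**
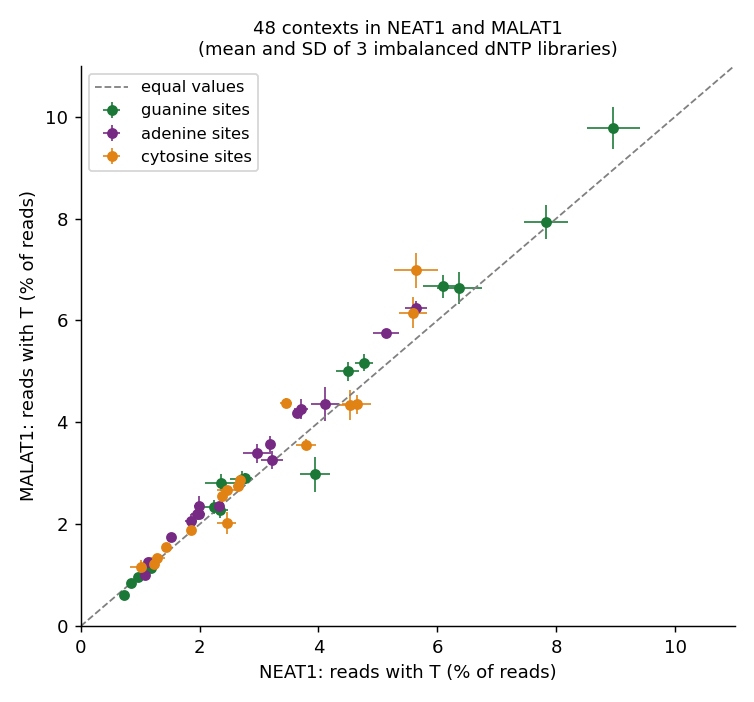
Mean mutation ratio (percent of reads with T) of the 48 contexts in NEAT1 (horizontal axis) and MALAT1 (vertical axis), coloured by the base read; bars are the SD of 3 imbalanced dNTP libraries and the dashed line marks equal values. Points run along the line with r = 0.987, and 33 contexts lie above it in all 3 libraries.

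Transcripts of paraspeckle proteins, and of factors that set the 3′ end of the short isoform, gave little signal beside NEAT1. Of 30 genes for such proteins and factors, 18 had a position listed under imbalanced dNTP. Only 4 had positions that could be tested, that is, listed under both dNTP conditions and deep enough in all 6 libraries. Of their 81 tested positions, 16 (19.8%) were called higher and none lower, with no unadjusted edgeR p under 0.05 for a lower share. Calls of a higher share reached 73.9% of all positions tested and 65.3% of those outside NEAT1. The median log2 change of the 81 positions was 2.73. The calls came from HNRNPH1, which encodes a splicing regulator, with 8 of 56 positions, and from MATR3, which encodes a nuclear matrix protein, with 8 of 14. Their depth was far below that of NEAT1, with medians of the lowest depth per listed position of 18 in HNRNPH1 and 46 in MATR3, and its part in the lower share of calls was not tested.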

How the data were processed

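Per the labels and the study's methods, the authors used cutadapt for adapters, BBMap for duplicates (by unique molecular identifier), TopHat2 for mapping (hg38) and JACUSA for the bases. The deposited values are raw counts of reads with each base at a position in a library, not normalized. All listed bases equal those of hg38, and each column of counts was assigned to a library. NEAT1 positions, gene lists and comparisons were chosen with earlier results of these data known.

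Ratios were summed reads with T over summed depth within a library, averaged over the 3 bases or over 48 contexts, where a context is a base with its 2 neighbours. For reads with and without T, edgeR 4.0.16 (R 4.3.3) gave the quasi-likelihood test, adjusted by Benjamini-Hochberg over 32284 positions. These were listed under both dNTP conditions and had 10 reads or more in all 6 libraries. The design of the test had library effects and, as each pair came from 1 ligated RNA, a block for the replicate on the mutated share. Deviations of log2 depth correlated at 0.746, 0.590 and 0.871 within the pairs of replicates 1, 2 and 3 over 24432 positions of the series. Replicates 1 and 2 also correlated across numbers. The value was 0.699 for imbalanced dNTP 1 with balanced dNTP 2, and 0.599 for imbalanced dNTP 2 with balanced dNTP 1. These values therefore set replicate 3 apart but do not tell the pairs of replicates 1 and 2 apart. The SE beside a log2 change was derived from that change and its test, since the fit itself kept no SE. Alternatives used DESeq2 1.42.0 or Fisher's exact test. Differences between sets of positions were tested over the 3 replicates by exact sign changes with scipy. Positions were named by rank, as given with their sequences. No 2 imbalanced dNTP replicates were copies: the chi-square of their depths in NEAT1 was at least 1.24 per degree of freedom. Balanced dNTP replicates were not compared in this way. Limits given for counts of 0 are 3 counts over the depth and cover counting error only; the SD is over replicates.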

Additional observations from a re-analysis of the deposited data

Results flagged for a closer look

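Bases other than T were outside the comparisons above, and 3 kinds of mismatch were more frequent under imbalanced dNTP at NEAT1 positions listed in both tables, without the positions where another base than that of hg38 exceeded 20%. At 3504 guanines, A was read in 0.148%, 0.154% and 0.143% of reads in imbalanced dNTP replicates 1, 2 and 3 and in 0.0705%, 0.0787% and 0.0722% under balanced dNTP, a difference of 0.0747 ± 0.00318 percentage points and a ratio of 2.01 (SD, n = 3; higher in 3 of 3 pairs, exact paired permutation test, p = 0.25). At 3410 adenines, G was read in 0.166% ± 0.00613 under imbalanced and 0.137% ± 0.00453 under balanced dNTP, a difference of 0.0288 ± 0.00310 percentage points (higher in 3 of 3 pairs, exact paired permutation test, p = 0.25). Reads with C at the guanines made up 0.0629%, 0.0738% and 0.0715% under imbalanced and 0.0543%, 0.0661% and 0.0594% under balanced dNTP, a difference of 0.00945 ± 0.00231 percentage points (higher in 3 of 3 pairs, exact paired permutation test, p = 0.25). Reads with C at the adenines went the other way, with 0.292% ± 0.00388 under imbalanced and 0.345% ± 0.0155 under balanced dNTP, so that all mismatches other than T at adenine came to 0.458% and 0.481%. Those at 3210 cytosines were also lower, with 0.0961% ± 0.00370 under imbalanced and 0.119% ± 0.0106 under balanced dNTP.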

How the results depend on the processing

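The values above were recomputed under 65 alternative settings in all, of which 4 turned a direction, 2 moved a count by over 1.5 times and 2 moved the depth ratio by over 1 SD. The count of 9388 called NEAT1 positions was 9749 without the replicate block, 9416 with DESeq2, 6272 with Fisher's exact test in each replicate, and from 9335 to 9454 with other minimum depths. The 10215 sites became 10346 with a pooled input, that is without the replicate block, 7752 with a listed input required, 1852 with a minimum ratio of 0.05 and 220 with a minimum ratio of 0.1. They numbered 10581 to 11132 when 1 replicate was left out. The difference between the first 3.7 kb and the rest, -0.156, was 0.118 with the 48 contexts weighted equally and 0.126 when unlisted positions were also set to 0 reads with T, an alternative chosen after seeing the data. The difference between NEAT1 and MALAT1, 0.224, was -0.207 and -0.213 under the same settings, and 0.128 by base with unlisted positions at 0 reads with T. The depth ratio of 0.889 was 0.981 with mean depths and 0.914 at positions listed in both tables. Leaving out each replicate changed no direction, and the UNU difference stayed between 2.83 and 3.30 under the other settings. With 3 pairs no exact p can fall below 0.25, so these tests say nothing about stability. Since a listed position needs 3 reads with T, ratios well below the median of 2.70% are seen only in part at the lower depths.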
